A study of Saccharomyces cerevisiae with 16 samples.

Results

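Budding yeast cells without the kinase gene *IME2* (*ime2Δ*) were compared with wild type (WT) cells at 2 h after the shift to sporulation medium. The comparison used 4 arrays, 2 of *ime2Δ* cells and 2 of WT cells, out of 16 arrays in the time course, and they were chosen by their labelled time and genotype alone. The *ime2Δ* cells were strain YGB221, a diploid in which *TRP1* replaces both copies of *IME2*, and the WT cells were strain DSY1089. Both were *MAT*a/α diploids of the SK1 background with the *ho*::LYS2, *lys2*, *ura3*, *leu2*::hisG and *trp1*::hisG alleles and with heteroallelic *arg4* and *his4* markers, so the mutant also differed from WT by a functional *TRP1*. Cells were grown in acetate medium before the shift, and total RNA was labelled and hybridized in a single color. The 2 samples of a group were biological replicates. The methods of the study describe aliquots harvested from the cell suspension at 0 h and at later times. Samples of a strain at different times therefore likely share cultures. A level is given below as the log2 signal of a gene's probe over the median of its array. A difference is the *ime2Δ* level minus the WT level, and each has its standard error from limma, a linear model fitted to all 16 arrays. A gene was called where its p, after Benjamini-Hochberg adjustment, was under 0.05.

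Ime2 is a protein kinase that is made only in cells entering meiosis and is related to the cyclin-dependent kinases. The transcription factors SBF and MBF drive the late G1 genes of the mitotic cycle, among them G1 and S phase cyclins and genes for DNA replication. After premeiotic S phase, yeast cells make and repair programmed double-strand breaks, and the factor Ndt80 then turns on the middle sporulation genes that act in the meiotic divisions and in building spores.

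The 4 arrays were alike in quality. The share of genes with a signal well above background was 96.5% and 97.9% on the *ime2Δ* arrays, and 97.7% and 95.2% on the WT arrays. *IME2* itself (YJL106W) was at -11.57 and -11.46 in *ime2Δ* cells, against 3.57 and 3.80 in WT cells, and was not well above background on either *ime2Δ* array, so WT cells had at least 10215-fold more signal. *TRP1* was at 1.55 and 1.28 in *ime2Δ* cells, against -0.07 and -0.15 in WT cells. Both genes were left out of everything that follows, which leaves 6254 genes. Of 18 haploid markers, 17 were well above background on all 4 arrays, with mean levels between -8.26 and -0.03 (median -3.0) in *ime2Δ* cells and between -7.98 and 0.67 (median -2.29) in WT cells, and 7 were lower and 1 higher in *ime2Δ* cells at 2 h. All 7 meiotic markers were well above background on the 4 arrays, with mean levels between -2.09 and 4.47 in *ime2Δ* cells and between -0.43 and 4.59 in WT cells, and 3 were lower in *ime2Δ* cells at 2 h and 4 at 0 h. Replicates 1 and 2 lay on different slides, and the *ime2Δ* and WT arrays lay in separate columns of both slides, so strain and slide column cannot be told apart.

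Of the 6254 genes, 850 differed between the strains at 2 h, with 566 lower and 284 higher in *ime2Δ* cells, which is 9.05% and 4.54% of all genes. The counts of each list below are to be read beside these shares. G1/S targets, here the 94 genes of the SBF list and the 111 of the MBF list taken by the study from earlier cell cycle work, 36 of them on both, made up 101 of the lower genes and 5 of the higher genes. Most of the genes called were therefore not on those lists, but neither were most of the genes tested. Of the genes outside the lists, 7.6% were lower and 4.6% higher, against 59.8% and 2.96% of the targets on the lists. Outside them, 465 genes were lower, with differences from -7.81 to -0.50 and a median of -1.13, and 279 genes were higher, with differences from 0.46 to 2.36 and a median of 0.95. The lower genes reached further: 86 of them differed by at least 2 on the log2 scale, against 8 of the higher genes. The median absolute log2 difference between the arrays of a strain was 0.20 in *ime2Δ* cells and 0.17 in WT cells. Across all genes, the differences of replicate 1 and replicate 2 correlated with Pearson's r = 0.809, a description only, since genes are not independent. Since each slide held both strains, the fit was repeated with the slide as a block, and it then called 704 genes lower and 532 higher. Every called gene outside the lists had both *ime2Δ* values on the same side of both WT values, and so the same direction on each slide. Such separation was common: over all 6254 genes, 1780 had both *ime2Δ* values below both WT values and 2095 had both above. In whole cultures, fewer cells that express a gene and less RNA per cell cannot be told apart.

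Many of the genes with the most negative differences act in spore formation, with signals far lower in *ime2Δ* cells than in WT cells. *SPS2* (YDR522C), which codes for a spore wall protein, was at -7.97 and -7.95 in *ime2Δ* cells, against 0.01 and -0.33 in WT cells. Its difference of -7.81 ± 0.21 was the most negative of all genes tested (limma adjusted p = 2.12e-10), and WT cells had 224-fold more signal. *SPS4* (YOR313C), a sporulation-specific gene, was at -5.25 and -5.52 in *ime2Δ* cells, against 1.86 and 1.68 in WT cells, a difference of -7.16 ± 0.25 (limma adjusted p = 1.25e-09). The arrays of the strains did not overlap for either gene, which was a condition for naming them, and the arrays of 1 strain lay close together. *SPO19* (YPL130W), which codes for a meiosis-specific prospore protein, stood at -7.42 and -6.20 in *ime2Δ* cells, against -1.37 and -1.91 in WT cells, with a difference of -5.17 ± 0.48 (limma adjusted p = 1.27e-05). *LOH1* (YJL038C) and *IRC18* (YJL037W), neighbouring genes, differed by -5.09 ± 0.26 and -5.27 ± 0.25. *PFS1* (YHR185C), required for prospore membrane formation, differed by -5.52 ± 0.43, and *SPR2* (YOR214C), which codes for a putative spore wall protein, by -5.53 ± 0.23. *RRT5* (YFR032C), a gene of unknown function, differed by -5.13 ± 0.37.

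Not all of the lowest genes are genes of the spore itself. *HXT10* (YFL011W), a putative hexose transporter, was at -8.07 and -7.97 in *ime2Δ* cells, against -2.76 and -2.69 in WT cells, a difference of -5.29 ± 0.43 (limma adjusted p = 3.37e-06). *GAT4* (YIR013C), which codes for a GATA-type zinc finger protein, was at -8.84 and -8.37 in *ime2Δ* cells, against -2.89 and -3.06 in WT cells, a difference of -5.63 ± 0.29 (limma adjusted p = 4.59e-08). *SRD1* (YCR018C), linked to the processing of pre-rRNA, was at -11.58 and -11.71 in *ime2Δ* cells, against -4.91 and -5.12 in WT cells, and *SMA2* (YML066C), needed for prospore membrane assembly, at -9.55 and -9.99 in *ime2Δ* cells, against -4.24 and -4.67 in WT cells. Neither gene was well above background on the *ime2Δ* arrays, and both were on the WT arrays, so their folds are bounds. Against the lowest signal well above background on the same arrays, or the gene's own signal where that was higher, *SRD1* was at least 24.7-fold higher and *SMA2* at least 36.2-fold higher in WT cells. Among open reading frames with only a systematic name, YPR078C was at -6.99 and -7.31 in *ime2Δ* cells, against -0.76 and -0.87 in WT cells, YDL186W at -9.66 and -8.98 in *ime2Δ* cells, against -3.19 and -3.46 in WT cells, and YDR042C at -5.34 and -4.95 in *ime2Δ* cells, against -0.70 and -0.69 in WT cells. Their differences were -6.33 ± 0.18, -6.00 ± 0.29 and -4.45 ± 0.25, and YDL186W was well above background on only 1 of the 2 *ime2Δ* arrays.

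**Figure D1:**
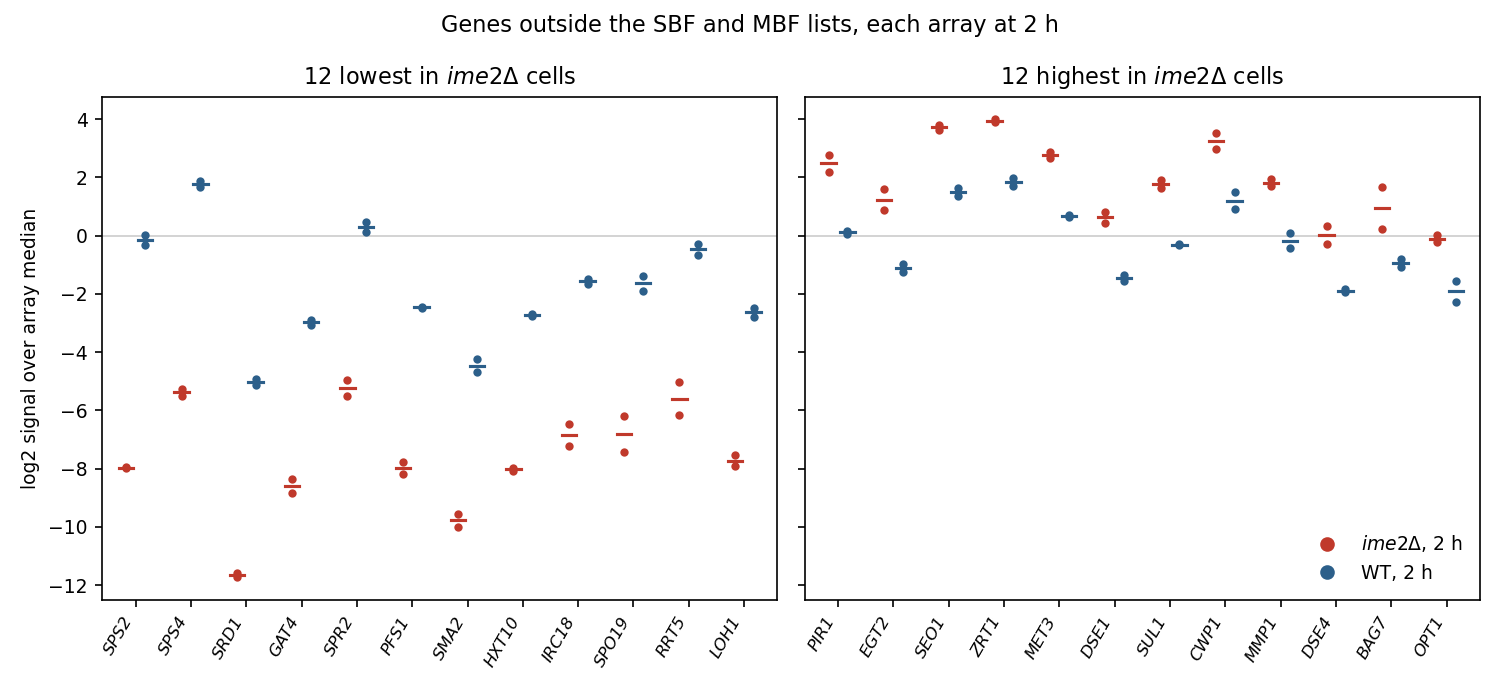
Log2 signal over the array median (vertical axis) of the 12 genes lowest (left) and the 12 genes highest (right) in *ime2Δ* cells at 2 h, outside the SBF and MBF lists. Each point is 1 array and each bar the mean of 2 arrays, with *ime2Δ* at the left of each gene. The arrays of the strains do not overlap for any of the 24 genes because this was a condition for choosing them. Levels of different genes come from different probes and are not comparable.

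The list of 58 middle sporulation genes had 38 lower and 2 higher members, with a median difference of -1.5, against 0.03 over all genes. The other 18 members did not pass. *LDS2* (YOL047C), which acts in spore wall assembly, was at -6.24 and -6.28 in *ime2Δ* cells, against -1.03 and -1.36 in WT cells, and *SMK1* (YPR054W), the mitogen-activated protein kinase of spore wall assembly, at -8.14 and -8.37 in *ime2Δ* cells, against -3.29 and -3.46 in WT cells. Their differences of -5.06 ± 0.19 and -4.88 ± 0.17 had limma adjusted p = 2.88e-09 and 1.25e-09, and these genes were singled out after their values were seen. The higher members were *SPO12* (YHR152W), a regulator of exit from mitosis, at -1.28 and -1.60 in *ime2Δ* cells, against -2.80 and -3.04 in WT cells, and *CHS6* (YJL099W), which acts in the transport of chitin synthase, at -0.60 and -0.98 in *ime2Δ* cells, against -1.87 and -1.74 in WT cells. The call of *CHS6* was lost without the first *ime2Δ* array (difference 0.83, limma adjusted p = 0.0854).

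Part of this difference was already there at 0 h, in cells harvested right after they were put into sporulation medium. The 0 h and 2 h comparisons use different arrays but likely aliquots of the same cultures, which the fit did not model. A difference between cultures can thus appear at both times. At 0 h 3.26% of all genes were lower and 1.41% higher in *ime2Δ* cells. Of the 58 middle sporulation genes, 33 were lower at 0 h, with a median difference of -1.18, and 29 were lower at both times. Over all genes outside the SBF and MBF lists, 108 were lower at both times, which is 23.2% of the 465 lower at 2 h and 54.3% of the 199 lower at 0 h. Among the higher genes 15 were shared, 5.38% of the 279 at 2 h and 19.5% of the 77 at 0 h. *SPS4* differed by -6.19 at 0 h and *SPR2* by -5.61, against -7.16 ± 0.25 and -5.53 ± 0.23 at 2 h. For *SPS2* the difference was -6.10 at 0 h, and the difference between strains in the change from 0 to 2 h was -1.71 ± 0.30 (limma adjusted p = 0.00893). That test passed in the negative direction for 2.46% of all genes and in the positive direction for 0.863%. *LDS2* had one of the most negative values among the sporulation genes named here, -3.46 ± 0.27 (limma adjusted p = 2.44e-05), as it fell by 3.26 relative to the array median in *ime2Δ* cells, against a change of 0.20 in WT cells that did not pass.

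**Figure D2:**
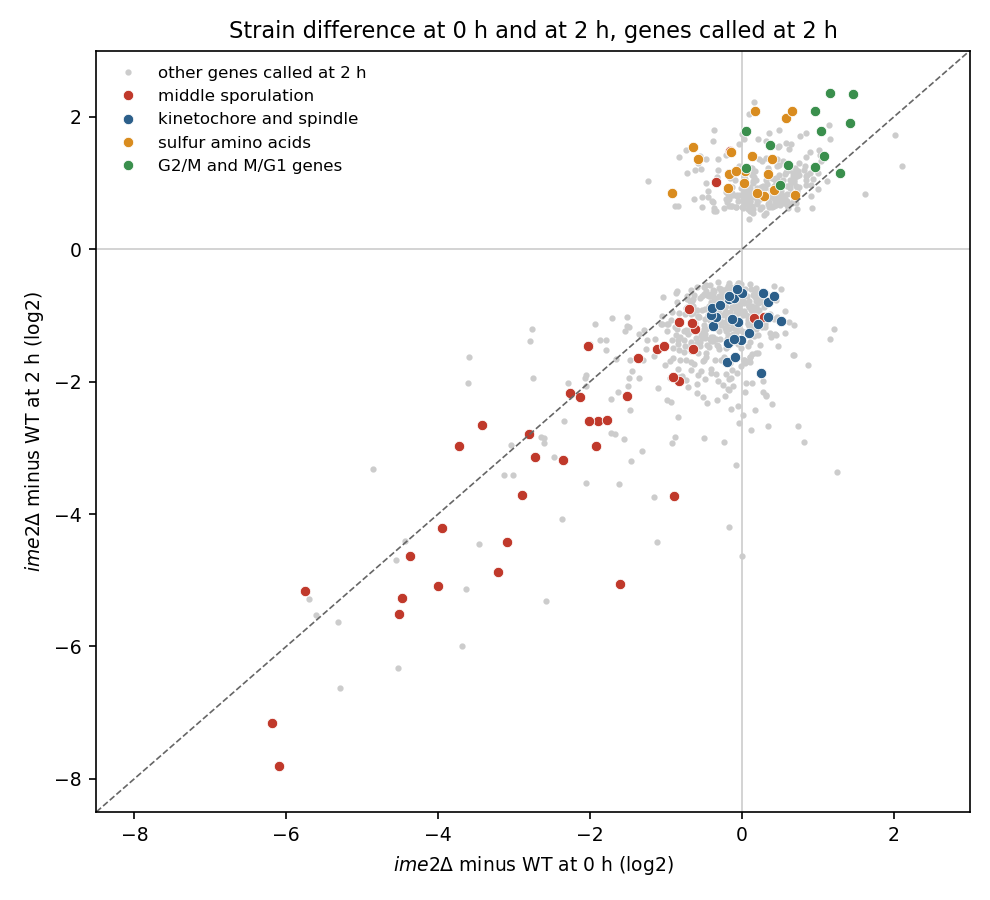
Strain difference (*ime2Δ* minus WT, log2) at 0 h on the horizontal axis and at 2 h on the vertical axis, for the 850 genes called at 2 h, with equal differences on the dashed line. Most middle sporulation genes called lower lie at the lower left, some of them below the line such as *LDS2* at -1.60 and -5.06, and the 2 called higher lie above 0 at 2 h, while the called kinetochore and spindle genes and the called sulfur genes lie at 0 h between -0.92 and 0.70.

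Genes of meiotic recombination were lower in *ime2Δ* cells and none was higher. Of 31 genes of strand exchange and crossover formation 15 were lower (median difference -0.71), and of 18 genes of double-strand break formation and the chromosome axis 8 were lower (median -0.75). *GMC2* (YLR445W), a synaptonemal complex protein, was at -3.91 and -3.62 in *ime2Δ* cells, against -1.06 and -0.80 in WT cells, and *ECM11* (YDR446W), its partner, at -1.69 and -1.36 in *ime2Δ* cells, against 0.21 and 0.86 in WT cells. They differed by -2.83 ± 0.28 and -2.06 ± 0.34 (limma adjusted p = 2.01e-05 and 0.00132). The differences at 0 h were -2.65 and -2.05. *HOP2* (YGL033W), which keeps strand exchange between homologues, was at 0.46 and 0.83 in *ime2Δ* cells, against 2.52 and 2.82 in WT cells, a difference of -2.02 ± 0.35 at 2 h after one of -3.61 at 0 h.

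Other recombination genes called at 2 h included some with little difference at 0 h. *MSH5* (YDL154W) and *MSH4* (YFL003C) code for the subunits of the MutS homologue that favours crossovers. *MSH5* was at 0.05 and 0.27 in *ime2Δ* cells, against 1.92 and 2.52 in WT cells, and *MSH4* at -0.52 and -0.42 in *ime2Δ* cells, against 1.16 and 1.65 in WT cells. Their differences at 2 h were -2.06 ± 0.24 and -1.87 ± 0.28 (limma adjusted p = 8.76e-05 and 0.000504), against -0.11 and -0.06 at 0 h. The difference between strains in the change from 0 to 2 h passed for both, at -1.95 ± 0.34 and -1.81 ± 0.39 (limma adjusted p = 0.00862 and 0.025). *REC107* (YJR021C), a double-strand break gene also called *MER2* and singled out after its values were seen, was at -1.43 and -1.5 in *ime2Δ* cells, against -0.57 and -0.42 in WT cells, a difference of -0.96 ± 0.17 with a difference in the change of -1.14 ± 0.24. *MEK1* (YOR351C), the kinase of the meiotic recombination checkpoint, was at 0.11 and 0.00 in *ime2Δ* cells, against 1.30 and 1.67 in WT cells, a difference of -1.43 ± 0.27 (limma adjusted p = 0.00322). *SPO11* (YHL022C), the gene of the nuclease that makes the breaks, was at -2.07 and -2.12 in *ime2Δ* cells, against -0.88 and 0.03 in WT cells, and its call at limma adjusted p = 0.0211 was lost without any of 3 of the 4 arrays. *DMC1* (YER179W), the meiotic strand exchange protein, differed by -0.44 ± 0.24 and *HOP1* (YIL072W), a protein of the chromosome axis, by -0.75 ± 0.33, and neither passed (limma adjusted p = 0.26 and 0.159). Both had been lower at 0 h, at -1.45 and -1.91 (limma adjusted p = 0.00364 and 0.00525). *SPO11* differed by -0.81 at 0 h, which did not pass (limma adjusted p = 0.313). The difference in the change from 0 to 2 h passed for 4 of the 31 strand exchange and crossover genes, all negative. Among the 18 break and axis genes it passed for 1, *REC107*, and so not for *MEK1* or *SPO11*.

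Cohesion genes were lower as well, with 7 of 20 lower and none higher (median difference -0.52). *REC8* (YPR007C), the cohesin subunit of meiosis, was at -0.04 and 0.19 in *ime2Δ* cells, against 1.87 and 1.94 in WT cells, a difference of -1.83 ± 0.27 (limma adjusted p = 0.000517), after -1.44 at 0 h. *MAM1* (YER106W), the meiosis-specific subunit of monopolin, was at -2.80 and -2.71 in *ime2Δ* cells, against -1.27 and -1.51 in WT cells, a difference of -1.37 ± 0.21 (limma adjusted p = 0.000702). The counts for recombination and cohesion depended on single arrays. Without the second WT array they were 7 of 31, 2 of 18 and 3 of 20 lower.

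Kinetochore and spindle genes outside the SBF and MBF lists were lower in *ime2Δ* cells for 25 of 59 members, none was higher, and the median difference was -0.50. None of the 59 was called at 0 h, where the median difference was 0.04. *SPC97* (YHR172W), a subunit of the gamma-tubulin complex at the spindle pole body, was at -3.0 and -3.04 in *ime2Δ* cells, against -1.45 and -0.86 in WT cells, a difference of -1.87 ± 0.23 (limma adjusted p = 0.000136). The tubulin genes lay apart in the same way. *TUB1* (YML085C), for alpha-tubulin, was at 1.67 and 1.47 in *ime2Δ* cells, against 3.15 and 3.40 in WT cells, and *TUB2* (YFL037W), for beta-tubulin, at 1.78 and 1.63 in *ime2Δ* cells, against 2.99 and 3.25 in WT cells. They differed by -1.70 ± 0.19 and -1.41 ± 0.19 (limma adjusted p = 5.74e-05 and 0.000308). The *TUB1* probe may also read *TUB3*, a close copy. *BUB3* (YOR026W), of the spindle checkpoint, was at -0.53 and -0.32 in *ime2Δ* cells, against 0.77 and 1.11 in WT cells, a difference of -1.36 ± 0.23. The difference between strains in the change from 0 to 2 h passed for 9 of the 59 genes, all negative, among them *SPC97* at -2.11 ± 0.33, *TUB1* at -1.5 ± 0.27, *TUB2* at -1.23 ± 0.27 and *BUB3* at -1.35 ± 0.32. *DUO1* (YGL061C), of the DASH complex that couples kinetochores to microtubules, was at -2.31 and -1.44 in *ime2Δ* cells, against -0.42 and -0.09 in WT cells, and its call was lost without the first *ime2Δ* array or the second WT array. Between 10 and 19 of the 59 genes were lower with 1 array left out, with 10 without the first *ime2Δ* array and 10 without the second WT array.

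**Figure D3:**
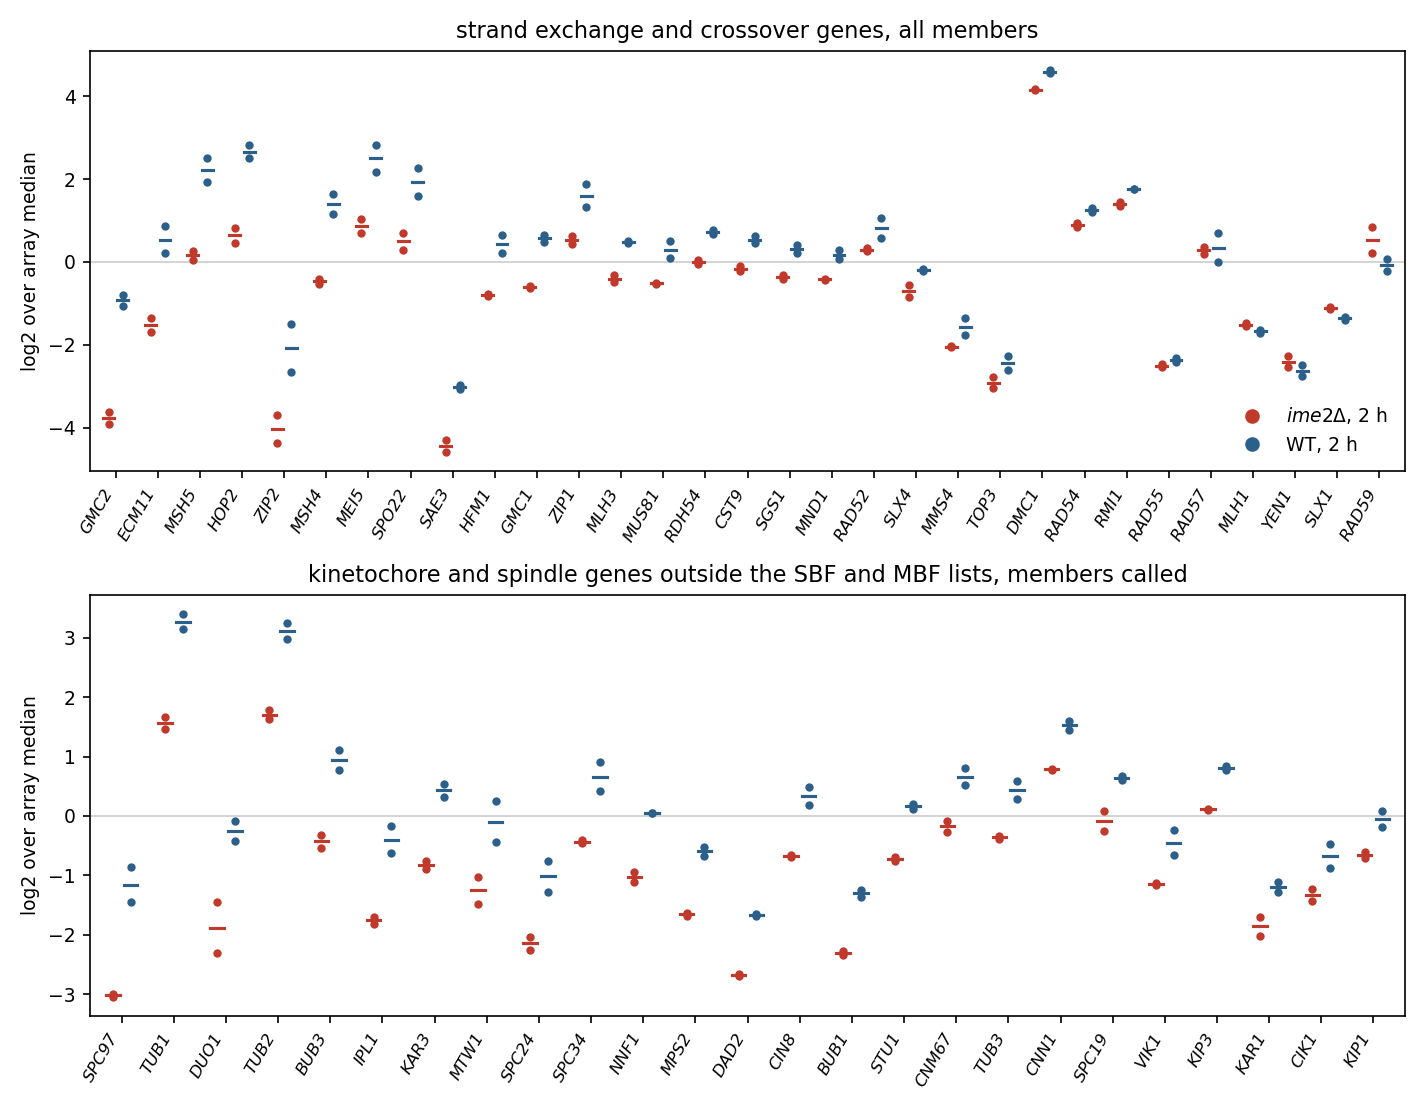
Log2 signal over the array median of each array at 2 h for the 31 genes of strand exchange and crossover formation (top) and for the 25 kinetochore and spindle genes called lower (bottom), ordered by the difference. Each point is 1 array and each bar the mean of 2, with *ime2Δ* at the left of each gene. In the bottom panel the *ime2Δ* points lie below the WT points for every gene, and in the top panel the difference shrinks toward the right and turns for a few genes.

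Of 47 replication genes that are not on the SBF and MBF lists, 12 were lower and none was higher, with a median difference of -0.34. At 0 h 5 of the 47 were lower, with a median of -0.17, and 3 were lower at both times. The difference in the change from 0 to 2 h passed for only 1 of the 47, *RNH201*, at -1.80. *RNH201* (YNL072W), the catalytic subunit of RNase H2, was at -2.26 and -2.08 in *ime2Δ* cells, against -0.52 and -0.42 in WT cells, a difference of -1.70 ± 0.26 (limma adjusted p = 0.000755). *POL2* (YNL262W), the catalytic subunit of DNA polymerase epsilon, was at 0.70 and 0.62 in *ime2Δ* cells, against 2.19 and 2.05 in WT cells, a difference of -1.46 ± 0.28. *CDC7* (YDL017W), the kinase that fires replication origins, was at -0.51 and -0.28 in *ime2Δ* cells, against 0.76 and 0.93 in WT cells, a difference of -1.24 ± 0.21 (limma adjusted p = 0.00163). With 1 array left out, between 3 and 9 of the 47 were lower, the fewest without the first *ime2Δ* array. Repair and checkpoint genes outside the lists were lower for 6 of 51, 11.8% beside 9.05% of all genes, and their median difference was 0.05. Among these 6, *HUG1* (YML058W-A), an inhibitor of ribonucleotide reductase, was at -3.98 and -4.18 in *ime2Δ* cells, against -1.52 and -1.82 in WT cells, a difference of -2.42 ± 0.27 (limma adjusted p = 5.47e-05). *SRS2* (YJL092W), a DNA helicase, was at -1.0 and -1.37 in *ime2Δ* cells, against 0.27 and 0.54 in WT cells, a difference of -1.59 ± 0.19. *RTT109* (YLL002W), the acetyltransferase of newly made histone H3, was at -3.05 and -3.10 in *ime2Δ* cells, against -1.96 and -1.36 in WT cells, a difference of -1.41 ± 0.20. *HHT1* (YBR010W), a histone H3 gene that is not on the lists, was at 3.40 and 3.43 in *ime2Δ* cells, against 5.06 and 5.12 in WT cells, a difference of -1.68 ± 0.17 (limma adjusted p = 2.44e-05), and its probe may also read the second H3 gene. All 4 of these genes lay between -0.15 and 0.68 at 0 h, and the difference in the change passed for each.

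A pair of genes on none of the lists also differed strongly, and both were singled out after their values were seen. *PLM2* (YDR501W), which codes for a forkhead-associated domain protein, was at -5.27 and -5.44 in *ime2Δ* cells, against -2.62 and -2.25 in WT cells. At 0 h its difference was 0.82, higher in *ime2Δ* cells (limma adjusted p = 0.021), and at 2 h -2.92 ± 0.18, lower (limma adjusted p = 1.71e-07). *ATR2* (YMR279C), a putative membrane transporter of boron, was at -6.73 and -7.02 in *ime2Δ* cells, against -2.66 and -2.68 in WT cells, a difference of -4.20 ± 0.20, against -0.17 at 0 h. The difference in the change was -3.73 ± 0.25 for *PLM2* and -4.04 ± 0.29 for *ATR2* (limma adjusted p = 1.37e-05 and 1.37e-05). Relative to the array median, *PLM2* changed by -0.45 in *ime2Δ* cells, which did not pass, and rose by 3.28 in WT cells. *ATR2* fell by 1.04 in *ime2Δ* cells and rose by 3.0 in WT cells.

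For comparison, 101 of the SBF and MBF targets (59.8%) were lower and 5 higher, with a median difference of -0.96 at 2 h and of -0.06 at 0 h. *CLB6* (YGR109C), an S phase cyclin, was at -6.15 and -5.92 in *ime2Δ* cells, against -1.76 and -1.45 in WT cells, a difference of -4.43 ± 0.32, and *RNR1* (YER070W), the large subunit of ribonucleotide reductase, at -0.00 and 0.04 in *ime2Δ* cells, against 3.37 and 3.19 in WT cells, a difference of -3.26 ± 0.23 (limma adjusted p = 1.11e-06 and 7.02e-07). *HTB2* (YBL002W), a histone H2B gene, was at -0.49 and -0.20 in *ime2Δ* cells, against 4.30 and 4.27 in WT cells, a difference of -4.63 ± 0.32 that was the most negative among the targets, beside 0.01 at 0 h. *TOS4* (YLR183C), for a forkhead-associated domain protein, was at -2.65 and -2.71 in *ime2Δ* cells, against 0.49 and 0.88 in WT cells, a difference of -3.36 ± 0.36 beside 1.25 at 0 h. *SPO16* (YHR153C), a listed target that acts in meiotic crossovers, was at -1.31 and -0.88 in *ime2Δ* cells, against 2.02 and 2.06 in WT cells. It differed by -2.47 at 0 h and by -3.14 ± 0.28 at 2 h. The 5 higher targets were *TOS7*, *SRL1*, *CRH1*, *CIS3* and *SKM1*, with differences from 1.08 to 1.33. Cell wall genes such as *CRH1* and *CIS3* were among them. Of these 5, *CRH1* and *CIS3* were called without the first WT array, and none without the first *ime2Δ* array or the second WT array.

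Hexose transporters were lower for 6 of 22 members, and for between 2 and 4 with 1 array left out, the fewest without the second WT array. With quantile normalization or normexp background the count was 4. The 6 make up 27.3% of the list, beside 9.05% of all genes. *HXT14* (YNL318C) was at -6.52 and -6.35 in *ime2Δ* cells, against -1.54 and -1.94 in WT cells, a difference of -4.69 ± 0.20 beside -4.56 at 0 h. Transporter genes of this family are alike in sequence and their probes may read more than 1 of them. Among 45 genes of phospholipid and fatty acid synthesis 4 were lower, which is 8.89% beside 9.05% of all genes, and 1 without the first *ime2Δ* array or without the second WT array. Of these, *ELO2* (YCR034W), a fatty acid elongase for sphingolipids, was at 0.83 and 1.17 in *ime2Δ* cells, against 2.60 and 2.85 in WT cells, a difference of -1.72 ± 0.22 (limma adjusted p = 0.000143). A further 4 genes, whose products are found in the endoplasmic reticulum or its vesicles, were on none of the lists and were picked after their values were seen. *MCD4* (YKL165C), of glycosylphosphatidylinositol anchor synthesis, was at -0.25 and -0.20 in *ime2Δ* cells, against 1.07 and 1.43 in WT cells, and *EMP24* (YGL200C), of the vesicles that leave the endoplasmic reticulum, at 2.00 and 1.99 in *ime2Δ* cells, against 3.57 and 3.33 in WT cells. *SBH1* (YER087C-B), of the Sec61 translocon, was at 1.59 and 1.53 in *ime2Δ* cells, against 3.0 and 2.89 in WT cells, and *ILM1* (YJR118C) at -1.05 and -1.08 in *ime2Δ* cells, against 0.32 and 0.53 in WT cells. Their differences were -1.47 ± 0.17, -1.46 ± 0.20, -1.38 ± 0.17 and -1.49 ± 0.18, with limma adjusted p between 8.44e-05 and 0.000277. Among 27 cyclins, cyclin-dependent kinases and G1/S regulators outside the lists, 2 were lower and 3 were higher, with a median difference of -0.01. That is 7.41% and 11.1%, beside 9.05% and 4.54% of all genes. *CDC28* (YBR160W), the cyclin-dependent kinase of the cell cycle, was at 1.01 and 1.16 in *ime2Δ* cells, against 2.12 and 2.27 in WT cells, a difference of -1.11 ± 0.17 (limma adjusted p = 0.000788). *FAR1* (YJL157C), an inhibitor of that kinase, differed by -1.01 ± 0.25 and *CLN3* (YAL040C), the first G1 cyclin, by 1.26 ± 0.38 (limma adjusted p = 0.0176 and 0.045). The call of *CLN3* was lost without any 1 of the 4 arrays, and that of *FAR1* without any but the second *ime2Δ* array. The other higher genes were *PCL9* and, named after its value was seen, *CLB2* (YPR119W), a mitotic cyclin, at 0.84 ± 0.25 (limma adjusted p = 0.0415), a call that was also lost without any 1 of the 4 arrays.

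Haploid and mating genes, which diploid cells repress, were lower for 7 of 26 members and higher for 1. That is 26.9% and 3.85%, beside 9.05% and 4.54% of all genes. The lower count was 2 without the first WT array, 3 without the first *ime2Δ* array, 4 without the second WT array and 3 with quantile normalization. *STE18* (YJR086W), the gamma subunit of the pheromone G protein, was at -5.24 and -4.92 in *ime2Δ* cells, against -3.23 and -3.04 in WT cells, a difference of -1.95 ± 0.26 (limma adjusted p = 0.000268). *ASG7* (YJL170C), a regulator of mating signalling, was at -4.38 and -3.97 in *ime2Δ* cells, against -2.24 and -2.12 in WT cells, a difference of -1.99 ± 0.28 at 2 h and of -0.31 at 0 h. *MFA2* (YNL145W), which codes for a-factor, was at -4.73 and -4.80 in *ime2Δ* cells, against -3.0 and -3.20 in WT cells, and *MF(ALPHA)1* (YPL187W), which codes for alpha-factor, at -6.23 and -5.33 in *ime2Δ* cells, against -3.56 and -4.12 in WT cells. Their differences of -1.66 ± 0.36 and -1.94 ± 0.40 at 2 h stood beside -1.65 and -2.75 at 0 h. The call of *MFA2* was lost without the first WT array (limma adjusted p = 0.0545), and that of *MF(ALPHA)1* without it or without the first *ime2Δ* array. Both were also lost with quantile normalization. The higher gene was *AGA2* (YGL032C), the binding subunit of a-agglutinin, at -5.21 and -5.04 in *ime2Δ* cells, against -6.20 and -6.78 in WT cells, whose call was lost without the second WT array (difference 1.07, limma adjusted p = 0.0817). The receptor gene *STE2* (YFL026W) differed by 0.09 ± 0.32 (limma adjusted p = 0.9). The part of these genes in the other differences was not tested.

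Genes of sulfur amino acid synthesis and uptake were higher in *ime2Δ* cells. Of 34 members 19 were higher and none was lower, with a median difference of 0.87. None was called at 0 h, where the median was -0.00103. The difference between strains in the change from 0 to 2 h had a median of 0.76. It passed for only 4 of the 34, all positive. *MET3* (YJR010W), the ATP sulfurylase that starts sulfate assimilation, was at 2.67 and 2.88 in *ime2Δ* cells, against 0.65 and 0.71 in WT cells, a difference of 2.09 ± 0.23 (limma adjusted p = 5.12e-05). *SUL1* (YBR294W), a high affinity sulfate permease, was at 1.64 and 1.92 in *ime2Δ* cells, against -0.33 and -0.29 in WT cells, a difference of 2.09 ± 0.27 (limma adjusted p = 0.000161). *MMP1* (YLL061W), the S-methylmethionine permease, was at 1.69 and 1.93 in *ime2Δ* cells, against 0.09 and -0.44 in WT cells, a difference of 1.98 ± 0.26 (limma adjusted p = 0.000208). *MET10* (YFR030W) and *MET5* (YJR137C), the subunits of sulfite reductase, were at 2.80 and 2.91 in *ime2Δ* cells, against 1.49 and 1.29 in WT cells, and at 2.65 and 2.93 in *ime2Δ* cells, against 1.25 and 1.59 in WT cells. Their differences were 1.46 ± 0.20 and 1.37 ± 0.25 (limma adjusted p = 0.000287 and 0.00253). *MET3*, *MET5* and *MET10* rose in both strains from 0 to 2 h relative to the array median, by more in *ime2Δ* cells, with a difference in the change of 1.92 ± 0.33, 1.94 ± 0.35 and 1.61 ± 0.28 (limma adjusted p = 0.00688, 0.00993 and 0.0083). *GSH1* (YJL101C), which starts glutathione synthesis, was at 1.51 and 1.77 in *ime2Δ* cells, against 0.09 and 0.46 in WT cells, a difference of 1.37 ± 0.20 (limma adjusted p = 0.000554). It also lies near *IME2* on its chromosome. With 1 array left out, the count was between 7 and 15 of 34, and it was 7 without the second *ime2Δ* array and 8 without the second WT array.

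Several of the genes with the highest differences code for transporters. *SEO1* (YAL067C), a putative permease of the allantoate family, was at 3.62 and 3.81 in *ime2Δ* cells, against 1.62 and 1.36 in WT cells, a difference of 2.23 ± 0.24 (limma adjusted p = 4.29e-05). *OPT1* (YJL212C), which takes up glutathione and oligopeptides, was at 0.01 and -0.22 in *ime2Δ* cells, against -1.54 and -2.28 in WT cells, a difference of 1.80 ± 0.38, and its call was lost without the first *ime2Δ* array or the second WT array. *ZRT1* (YGL255W), the high affinity zinc transporter, was at 3.99 and 3.90 in *ime2Δ* cells, against 1.98 and 1.69 in WT cells, a difference of 2.11 ± 0.32 (limma adjusted p = 0.00071). The difference in the change passed for *SEO1* at 2.07 ± 0.34, for *OPT1* at 2.17 ± 0.53 and for *ZRT1* at 1.95 ± 0.46. *BAG7* (YOR134W), a GTPase-activating protein of Rho1 signalling, was at 1.65 and 0.23 in *ime2Δ* cells, against -0.80 and -1.06 in WT cells, a difference of 1.87 ± 0.45, and its call was lost without the first *ime2Δ* array or the second WT array. Among open reading frames with only a systematic name, YPL199C, YMR103C and YAL066W differed by 1.80 ± 0.38, 1.74 ± 0.36 and 1.42 ± 0.29, and each lost its call without at least 1 of the arrays. Among 10 zinc genes 5 were higher, 50% beside 4.54% of all genes, and none was lower (median difference 0.47). Without the second WT array 2 of the 10 were higher, and without either *ime2Δ* array 3. *ZAP1* (YJL056C), the zinc-responsive activator, was at -0.18 and 0.46 in *ime2Δ* cells, against -1.52 and -1.45 in WT cells, a difference of 1.63 ± 0.34, and its call was lost without the second *ime2Δ* array (limma adjusted p = 0.0549).

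Glycolysis and fermentation genes were higher for 10 of 23 members, none was lower, and the median difference was 0.76. *PGI1* (YBR196C), which codes for phosphoglucose isomerase, was at 4.40 and 4.15 in *ime2Δ* cells, against 3.02 and 2.36 in WT cells, a difference of 1.59 ± 0.35 (limma adjusted p = 0.00844). *ENO1* (YGR254W), an enolase gene, was at 5.08 and 4.66 in *ime2Δ* cells, against 3.61 and 3.02 in WT cells, a difference of 1.56 ± 0.30 (limma adjusted p = 0.00346). *GPM1* (YKL152C), for phosphoglycerate mutase, was at 5.02 and 4.81 in *ime2Δ* cells, against 3.65 and 3.17 in WT cells, and *PGK1* (YCR012W), for phosphoglycerate kinase, at 4.78 and 4.49 in *ime2Δ* cells, against 3.54 and 2.94 in WT cells. At 0 h none of the 23 was called (median difference 0.10). The difference in the change from 0 to 2 h passed for 1 of the 23, and not for *PGI1*, *ENO1*, *GPM1* or *PGK1*. At 2 h the *ime2Δ* arrays lay above the WT arrays for each of these genes, which were among the 10 called. These calls depended on single arrays: all were lost without the second WT array, and most without the first *ime2Δ* array, those of *PGI1*, *GPM1* and *PGK1* among them. Without the second WT array the differences of *PGI1* and *ENO1* were 1.26, and the median of the list was 0.56. Without the first *ime2Δ* array *PGI1* differed by 1.46, and the median was 0.58. Of 18 glycogen and trehalose genes 6 were higher (33.3%, beside 4.54% of all genes) and 1 lower, with a median difference of 0.42. At 0 h their median difference was already 0.53, with 1 gene higher and 2 lower. The difference in the change from 0 to 2 h passed for none of the 18. *TSL1* (YML100W), a subunit of trehalose synthase, was at 0.81 and -0.31 in *ime2Δ* cells, against -1.55 and -1.46 in WT cells, a difference of 1.75 ± 0.35 (limma adjusted p = 0.00499). Without the first *ime2Δ* array, none of the 18 was higher.

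Genes of the end of the mitotic cycle, expressed from G2/M to M/G1, were higher for 13 of 34 members and lower for none, with a median difference of 0.69. Many of them act in the separation of daughter cells. *EGT2* (YNL327W), for a cell wall protein of cell separation, was at 1.61 and 0.87 in *ime2Δ* cells, against -0.97 and -1.25 in WT cells, a difference of 2.35 ± 0.39 (limma adjusted p = 0.00125). *DSE1* (YER124C), made in daughter cells, was at 0.82 and 0.44 in *ime2Δ* cells, against -1.56 and -1.36 in WT cells, a difference of 2.09 ± 0.26 (limma adjusted p = 0.000116). *DSE4* (YNR067C), a glucanase of daughter cells, was at 0.33 and -0.27 in *ime2Δ* cells, against -1.82 and -1.95 in WT cells, a difference of 1.91 ± 0.36. *CTS1* (YLR286C), the chitinase that splits mother from daughter, was at 1.95 and 1.46 in *ime2Δ* cells, against 0.19 and 0.08 in WT cells, a difference of 1.57 ± 0.26. *ASH1* (YKL185W), a repressor in daughter cells, was at 1.56 and 1.05 in *ime2Δ* cells, against 0.10 and 0.05 in WT cells, a difference of 1.24 ± 0.18 (limma adjusted p = 0.000433). *PIR1* (YKL164C), a cell wall protein, was at 2.78 and 2.18 in *ime2Δ* cells, against 0.17 and 0.07 in WT cells, and its difference of 2.36 ± 0.27 was the highest of all genes tested (limma adjusted p = 6.77e-05). Much of this was present at 0 h, where 6 of the 34 were higher and the median was 0.56, and *PIR1* differed by 1.16. The difference in the change from 0 to 2 h had a median of 0.13 and passed for 2 of the 34, *ASH1* and *PST1*. Both of these were named after their values were seen. *PST1* (YDR055W), a cell wall protein, was at 4.49 and 4.28 in *ime2Δ* cells, against 2.63 and 2.56 in WT cells, and differed by 1.79 ± 0.15 at 2 h and by 0.05 at 0 h. With 1 array left out, between 9 and 14 of the 34 were higher. *PCL9* (YDL179W), a cyclin of the Pho85 kinase made in late mitosis, was at -1.67 and -2.19 in *ime2Δ* cells, against -3.46 and -3.56 in WT cells, a difference of 1.58 ± 0.22 (limma adjusted p = 0.00029).

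Cell wall genes outside the lists were higher for 12 of 54 members and lower for 1. That is 22.2% and 1.85%, beside 4.54% and 9.05% of all genes. *CWP1* (YKL096W), a mannoprotein of the wall, was at 3.54 and 2.96 in *ime2Δ* cells, against 1.5 and 0.90 in WT cells, a difference of 2.05 ± 0.24 (limma adjusted p = 8.28e-05). *HSP150* (YJL159W) and *PIR3* (YKL163W), of the same protein family as *PIR1*, were at 4.43 and 3.97 in *ime2Δ* cells, against 2.79 and 2.29 in WT cells, and at 4.70 and 4.51 in *ime2Δ* cells, against 3.34 and 2.86 in WT cells. The differences were 1.66 ± 0.24 and 1.5 ± 0.25, and at 0 h they were 0.02 and -0.74. The lower gene, *GAS3* (YMR215W), a member of the glucan transferase family, was at 0.31 and 0.26 in *ime2Δ* cells, against 1.69 and 2.00 in WT cells, a difference of -1.57 ± 0.22 (limma adjusted p = 0.000316). The count fell to 5 of 54 without the first *ime2Δ* array and to 5 without the second WT array.

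**Figure D4:**
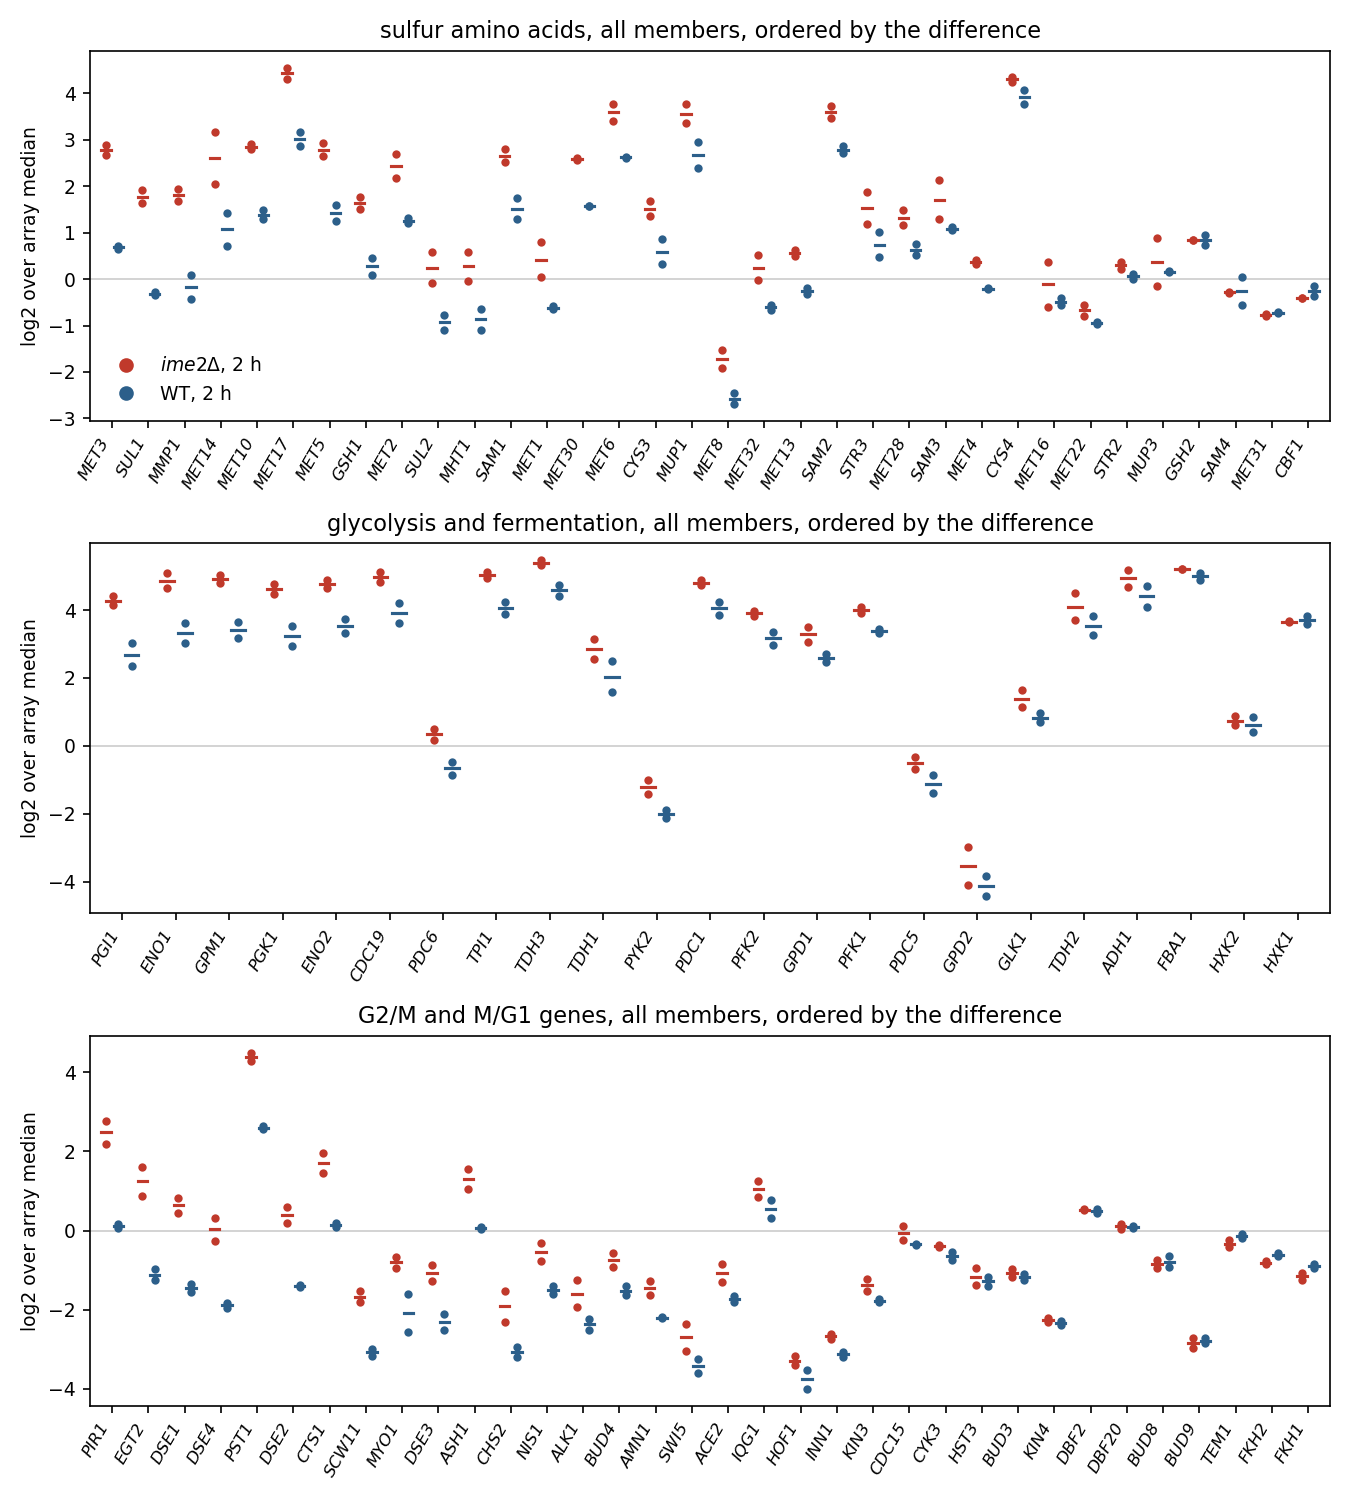
Log2 signal over the array median of each array at 2 h, for all members of 3 lists outside the SBF and MBF lists: 34 sulfur amino acid genes, 23 glycolysis and fermentation genes, and 34 G2/M and M/G1 genes, ordered by the difference. Each point is 1 array and each bar the mean of 2, with *ime2Δ* at the left of each gene. The largest differences stand at the left of each panel, and at the right end the strains lie close together.

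Several large groups held no called gene. None of 138 cytosolic ribosomal protein genes, 126 ribosome biogenesis genes, 56 genes of translation factors and aminoacyl-tRNA synthetases, 40 respiratory chain genes and 30 genes of nitrogen catabolite repression passed in either direction. The median differences of these lists lay between -0.12 and 0.10. Proteasome genes were lower for 1 of 39 members, with a median of -0.26, and 31 of the 39 lay below 0 in both replicates, as did 2081 of all 6254 genes. Genes outside the calls may still differ by amounts that 2 arrays per strain cannot show.

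**Figure D5:**
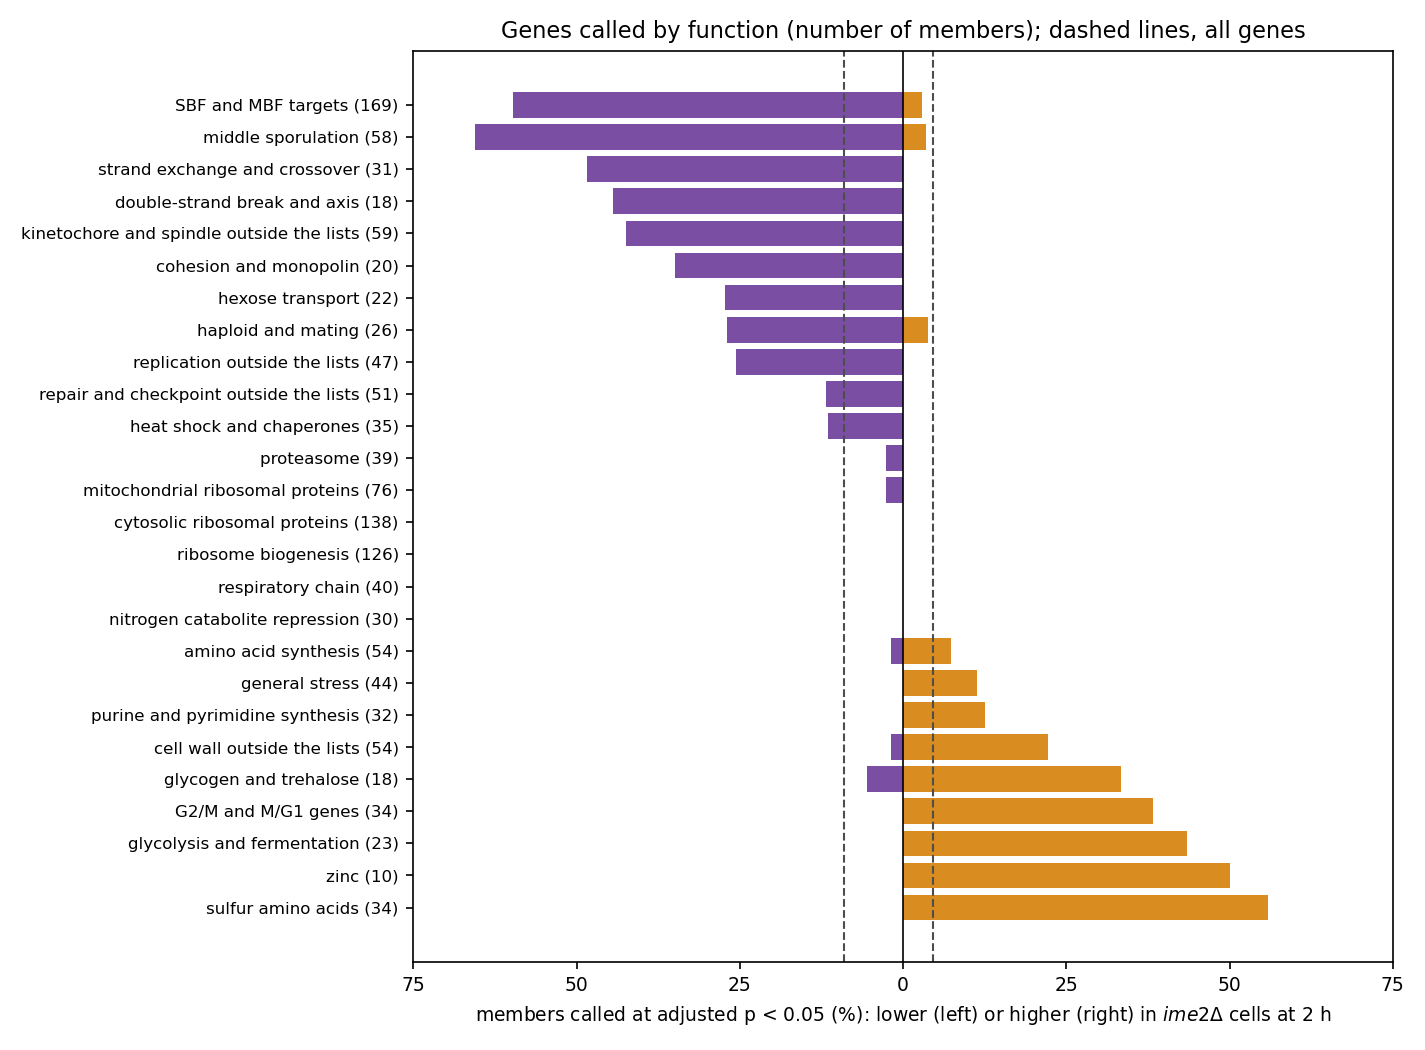
Share of the members of the gene groups shown, the SBF and MBF targets among them, called lower (left of 0) or higher (right of 0) in *ime2Δ* cells at 2 h, in percent of the members given in parentheses. Dashed lines mark the shares over all 6254 genes, 9.05% lower and 4.54% higher, and the bars run from the middle sporulation genes with 38 of 58 lower to the sulfur genes with 19 of 34 higher.

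Of 30 regulators of entry into meiosis, 2 were lower in *ime2Δ* cells and none was higher, with a median difference of -0.02. The lower share was 6.67%, beside 9.05% of all genes. *SLZ1* (YNL196C), a subunit of the mRNA methylation complex, was at 1.67 and 1.62 in *ime2Δ* cells, against 2.67 and 2.86 in WT cells, a difference of -1.12 ± 0.23 (limma adjusted p = 0.00543) beside -0.99 at 0 h. *KAR4* (YCL055W), a transcription factor of mating and meiosis, was at 0.84 and 0.98 in *ime2Δ* cells, against 1.59 and 1.72 in WT cells, a difference of -0.74 ± 0.17 (limma adjusted p = 0.0102). Neither was called without the second WT array. The main regulators were among those that did not pass. *IME1* (YJR094C), the master activator of the program, was at 4.54 and 4.39 in *ime2Δ* cells, against 4.45 and 4.52 in WT cells, a difference of -0.02 ± 0.22 (limma adjusted p = 0.974). *UME6* (YDR207C), which binds the promoters of early meiotic genes, differed by -0.08 ± 0.23, and *IME4* (YGL192W), the mRNA methyltransferase, by -0.34 ± 0.18. *NDT80* (YHR124W), the activator of the middle genes, was at -0.92 and -1.17 in *ime2Δ* cells, against -0.32 and -0.57 in WT cells, with a difference of -0.60 ± 0.28 that did not pass (limma adjusted p = 0.184). Both *ime2Δ* values of *NDT80* lay below both WT values, as for 1780 of all 6254 genes. *SUM1* (YDR310C), which represses middle genes, differed by -0.27 ± 0.23 (limma adjusted p = 0.484).

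The 5 genes on each side of *IME2*, the replaced locus, were read for effects of the replacement. The 5 on each side of the native *TRP1* locus were read as well. Both strains carried *trp1*::hisG at that native locus, and the *TRP1* copy of *ime2Δ* cells lies at *IME2*. Of these 20 genes, 3 were higher and 1 was lower, with a median difference of 0.19. That is 15% and 5%, beside 4.54% and 9.05% of all genes, and the counts are small. The higher genes were *GSH1*, *PRM10* (YJL108C) and YJL107C, all near *IME2*. YDR008C, a reading frame beside *TRP1* that RefSeq does not list and that is not among the 20, was also higher, at -7.94 and -7.49 in *ime2Δ* cells, against -8.64 and -8.96 in WT cells, a difference of 1.09 ± 0.22 (limma adjusted p = 0.00541). It was well above background on only 1 of the WT arrays, and its call was lost without the second *ime2Δ* array or the second WT array. *PRM10*, a pheromone-regulated gene, was at -0.86 and -1.28 in *ime2Δ* cells, against -2.08 and -2.15 in WT cells, a difference of 1.04 ± 0.17 (limma adjusted p = 0.0013), after 0.54 at 0 h. YJL107C, next to it, was at -2.01 and -2.16 in *ime2Δ* cells, against -3.06 and -3.18 in WT cells, and its limma adjusted p of 0.0496 was lost without any 1 of the 4 arrays. *SET4* and *PAM16*, the closest of the 20 genes on the other side of *IME2*, differed by 0.20 ± 0.17 and -0.31 ± 0.18 and did not pass. The lower gene was *PSF1* (YDR013W), a subunit of the GINS replication complex, near *TRP1*, with a difference of -1.14 ± 0.27, and its call was lost without the first *ime2Δ* array or the second WT array.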

How the data were processed

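RNA of 16 samples (8 groups of 2) was hybridized to 16 single-color Agilent arrays. The authors scanned and extracted the arrays with Agilent Feature Extraction 10.7.1.1, and the deposited scanner files give each spot's processed signal, a background-corrected intensity. A deposited table of the authors' log2 values, with a median of 0 in each array, served as an alternative and correlated with the values used here at r of at least 0.9997. Here, log2 processed signals were averaged over the 2 spots of a probe, without control spots, and the array median was subtracted. All 16 arrays were fitted with limma 3.58.1 in R 4.3.3 (8 residual and 4.58 prior degrees of freedom), with Benjamini-Hochberg adjustment over 6254 genes. The number of arrays limits the precision, and p-values measure the spread between these samples.

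Of 6256 probes, each naming its own open reading frame, 5756 matched a RefSeq locus tag and 5234 had a standard name. The genes named, outside the SBF and MBF lists, were the 12 lowest and the 12 highest called genes with a standard name and no overlap between strains, the 3 lowest and 3 highest open reading frames with only a systematic name, up to 4 called genes of each list, the leading targets, 5 meiotic regulators, and the genes next to *IME2* and *TRP1*; only some are described. Others were picked after their values were seen, which the text says for some of them. *MSH4*, *BUB3*, *MET5*, *MET10*, *CTS1*, *AGA2*, *SPO12* and *CHS6* were also picked in this way. The gene lists and members were chosen with earlier results of these data known. The alternatives were the 75th percentile, quantile normalization, normexp background, the authors' values, a filter on dim probes, the replicate block, the 4 arrays alone, another prior, a log2 difference of at least 1, and leaving out each array. Normexp, with an offset of 50, used the median spot signal, the scanner files used here having no column of mean signals. Promoter sequences were not used here.

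Replicate numbers are also slides. The deviations of replicate 1 from replicate 2 correlated between the strains at 2 h with r = 0.202, and between 0.0754 and 0.535 over the 28 pairs of groups, so the numbers were not taken to pair the samples.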

Additional observations from a re-analysis of the deposited data

Results flagged for a closer look

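For each of the following genes the strain difference (*ime2Δ* minus WT, log2) at 2 h differed from that at 0 h by limma's test of the difference itself, with 2.46% of all genes passing it in the negative and 0.863% in the positive direction. The values are the 2 h difference minus the 0 h difference, and no explanation was tested. The negative values were *SPS2* at -1.71, YPR078C at -1.81, YDL186W at -2.32, *SMA2* at -2.72, *LDS2* at -3.46, *SMK1* at -1.66, *HTB2* at -4.64 and *CLB6* at -3.31. Also negative were *ATR2* at -4.04, *TOS4* at -4.61, *RNR1* at -3.18, *PLM2* at -3.73, *HUG1* at -2.27, *MSH5* at -1.95, *ASG7* at -1.68 and *MSH4* at -1.81. Further down were *SPC97* at -2.11, *ELO2* at -1.76, *TUB1* at -1.50, *RNH201* at -1.80, *HHT1* at -1.71, *SRS2* at -2.27, *ILM1* at -1.28 and *MCD4* at -1.04. The remaining negative values were *EMP24* at -1.14, *RTT109* at -1.27, *TUB2* at -1.23, *SBH1* at -1.0, *BUB3* at -1.35, *GAL2* at -1.44, *REC107* at -1.14 and *HSP26* at -1.11. Positive values were found for *DAL7* at 1.49, *CHS6* at 1.36, *ASH1* at 1.18, *AGA2* at 1.83, *MET5* at 1.94, *MET10* at 1.61, *SPO12* at 1.64 and *PIR3* at 2.24. The others were *HSP150* at 1.64, *PST1* at 1.74, *OPT1* at 2.17, *CWP1* at 1.96, *MET3* at 1.92, *ZRT1* at 1.95 and *SEO1* at 2.07. *SMA2* was not well above background on the *ime2Δ* arrays at 2 h, so its value rests on a dim signal.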

How the results depend on the processing

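With 2 arrays per strain, single arrays decided many calls. Leaving out 1 of the 4 arrays gave between 381 and 690 called genes, between 234 and 342 lower and between 69 and 251 higher genes outside the SBF and MBF lists, between 78 and 92 lower and between 0 and 8 higher targets, and between 77 and 149 genes that differed in the change from 0 to 2 h. The count of all called genes was lowest without the second WT array (381) and the first *ime2Δ* array (394), where the lone array was assumed to vary like the other groups, and it was 550 without the first WT array. With the replicate block, 525 genes outside the lists were higher, against 279, and 362 genes differed in the change from 0 to 2 h, against 208. Same-numbered samples share a slide, and their deviations correlated with r = 0.202 at 2 h and between 0.0754 and 0.535 over all pairs of groups. Quantile normalization gave 430 higher genes outside the lists. Asking for a log2 difference of at least 1 left 482 called genes, 274 lower and 124 higher outside the lists. The other alternatives called between 725 and 881 genes in all. Of the 162 named genes called, none reversed under any alternative, and 162 stayed called with the replicate block, 149 with normexp background and 90 without the second WT array. Low signals limit *SRD1*, *SMA2* and YDL186W.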
